A study of Homo sapiens with 15 samples.

Results

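Cultured induced Müller glial cells (iMGCs) were compared with the human induced pluripotent stem cells (hiPSCs) they came from. The comparison took all 3 hiPSC libraries and all 6 iMGC libraries, 9 of the 15 libraries of the series, by their labels. No expression value was used in the choice. The series follows Müller glia in retinal organoids (ROs) by poly(A) RNA sequencing. All samples came from a single hiPSC line, BC1-GFP, which carries a green fluorescent protein reporter. The hiPSCs were undifferentiated cells grown in mTeSR1 medium on Matrigel. The iMGCs were grown out of the dissociated neural retina layer of ROs at differentiation day 150. They were kept on Matrigel in DMEM with 10% fetal bovine serum and collected on the fifth day of passage 1 (P1, 3 libraries) or passage 5 (P5, 3 libraries). Both were flat cultures on the same coating, so no organoid tissue was sampled in either group. Medium and serum differed between them.

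Pluripotent cells are kept in their state by a small circuit of transcription factors around OCT4, SOX2 and NANOG, divide fast, hold together through E-cadherin junctions and rely on glycolysis. Müller glia are the radial glia of the retina. They span its full depth, take up glutamate, recycle retinoids for photoreceptors, buffer potassium, and carry the intermediate filament vimentin. When they are plated and passaged, glia of many kinds spread, make matrix and assemble actin bundles.

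Sequencing depth was similar in both cultures. The hiPSC libraries held 18934071 to 20398755 expected counts and the iMGC libraries 15147424 to 17688638. Levels are given in FPKM, fragment counts scaled by transcript length and by mapped fragments, as the authors deposited them, in the order of the replicate numbers where 3 values are listed. Fold changes are log2 values with their standard error from an edgeR quasi-likelihood fit of the counts, iMGC (mean of P1 and P5) minus hiPSC, so that they are not ratios of the FPKM values. A gene was called when its Benjamini-Hochberg adjusted p was under 0.05 and it differed at least 2-fold; only such genes are said to rise or fall. Labels and methods give 3 independent experiments per group, whereas the design text gives 2 for the hiPSCs. The design text also names 2 sequencing companies and a correction between data batches, without saying which libraries went where, and both cultures lie in separate deposited tables, so that culture, medium and batch cannot be told apart. Within a group, libraries were alike. Spearman correlations of the normalized counts were 0.985 to 0.994 among hiPSCs and 0.997 to 0.998 within each iMGC passage, against 0.567 to 0.616 between hiPSC and iMGC libraries.

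Most genes tested differed between the cultures. Of 12828 genes with at least 1 FPKM in at least 3 of the 9 libraries, 7190 were called (56.0%), 3454 higher in iMGCs (26.9%) and 3736 lower (29.1%). The changes were large. At least 10-fold differences were found for 756 genes that rose and 1172 that fell. The 6 iMGC and 3 hiPSC libraries did not overlap in FPKM for 10444 genes (81.4%). The median log2 fold change over all genes tested was -0.07, and it was -0.37 when libraries were scaled by total counts alone. The split of the calls depended on this scaling, with 48.0% of calls higher in iMGCs in the main fit and 37.9% with total counts alone. It was 36.9% and 35.0% with limma on log2 FPKM at a pseudocount of 0.1 and 1. Removing a trend on transcript length moved it the other way, to 54.9%, with a median log2 fold change of 0.14. The directions below are relative to the scaling of the main fit, and lists whose direction depends on it are named as such.

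**Figure D1:**
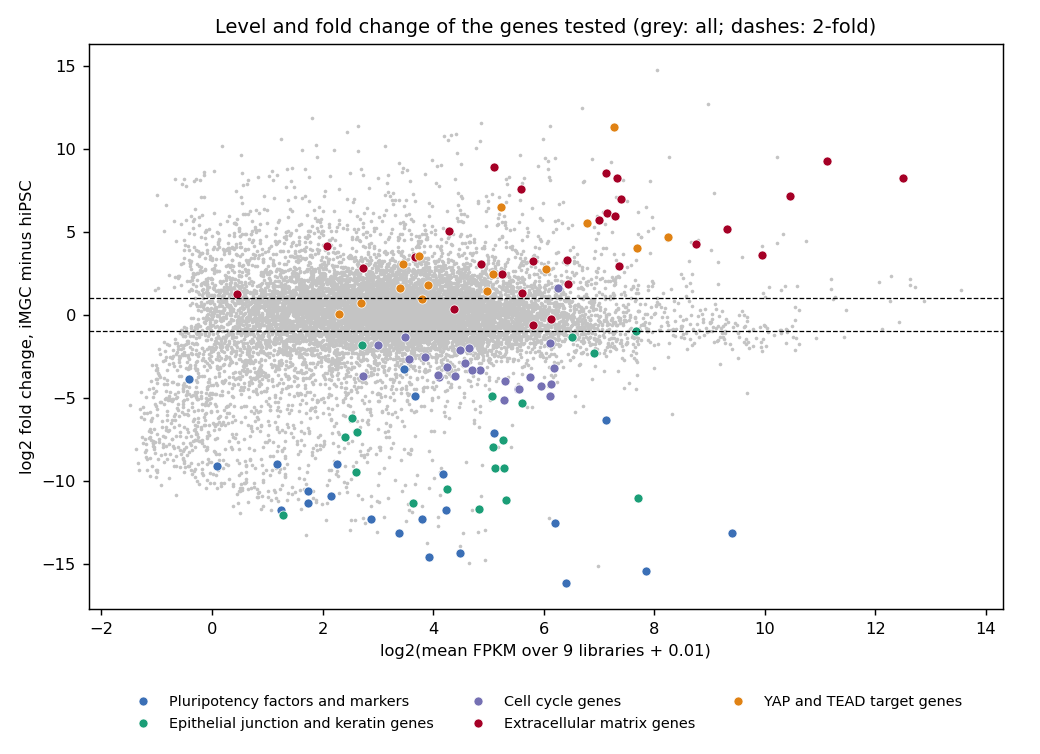
Each grey point is 1 of the 12828 genes tested, with its mean level over the 9 libraries (log2 FPKM + 0.01) on the horizontal axis and its fold change (log2, iMGC minus hiPSC) on the vertical axis; coloured points are members of 5 lists and dashed lines mark a 2-fold difference. Pluripotency and epithelial genes reach values under -10, and matrix genes are among the most abundant genes that rose.

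The composition of the libraries differed as well. Transcripts of 29 matrix genes took 0.289 to 0.334% of the counts in hiPSCs and 10.4 to 11.9% in iMGCs. A single gene, FN1, which encodes fibronectin, took 5.61 to 6.28% of all iMGC counts, against 0.0219 to 0.0270% in hiPSCs. Long transcripts take more reads, and as shares of summed FPKM, which divides by length, FN1 was at 1.94 to 2.17% in iMGCs and 0.00566 to 0.00710% in hiPSCs, and the matrix genes at 4.27 to 4.91% and 0.114 to 0.128%. The 10 genes with most counts in a library held 7.24 to 7.47% of the hiPSC counts and 14.6 to 16.5% of the iMGC counts. Cytosolic ribosomal protein genes went the other way, at 6.79 to 7.39% and 2.73 to 3.04%. Genes at 1 FPKM or more numbered 11986 to 12089 in hiPSCs and 11212 to 11272 in iMGCs. For each of these measures the groups did not overlap and the exact two-sided permutation p was 0.0238, before and after adjustment over the 6 measures compared. This is the smallest p that 6 against 3 libraries allow. The FN1 and ribosomal protein shares were added to the measures first planned. The measures overlap, since FN1 is 1 of the 29 matrix genes, and the test takes the P1 and P5 libraries as 6 of a kind.

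**Figure D2:**
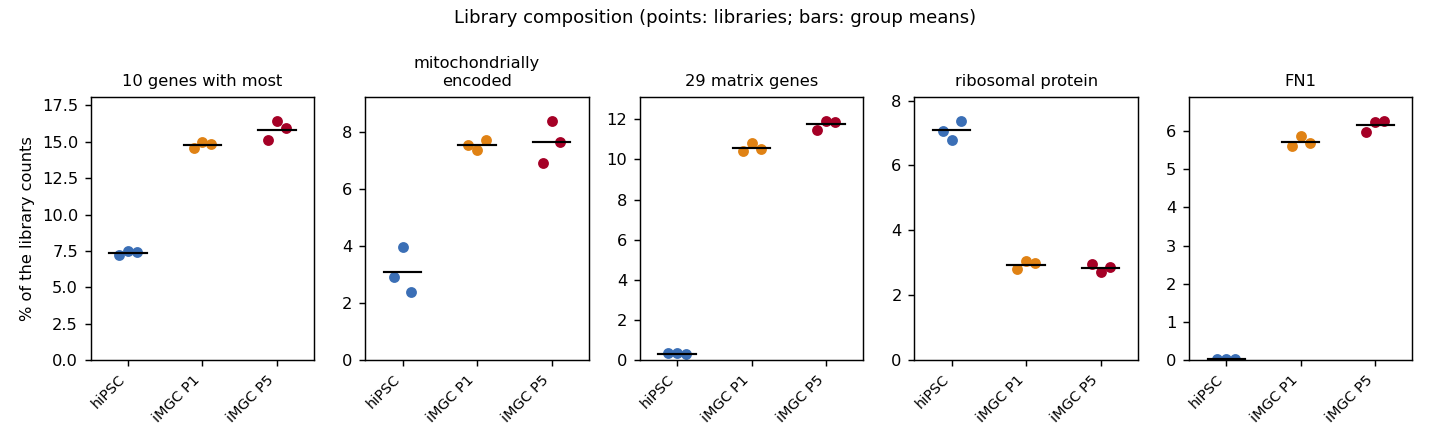
The 5 panels plot the percentage of a library's counts that falls in the 10 genes with most counts, the 13 mitochondrially encoded genes, the 29 matrix genes, the cytosolic ribosomal protein genes and FN1; points are the 3 libraries of each group, bars are group means and every axis starts at 0. In all 5 panels the hiPSC libraries lie apart from the 6 iMGC libraries, with the ribosomal protein share as the one that is higher in hiPSCs.

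Pluripotency genes were at or near 0 in the iMGC libraries. All 23 genes of the pluripotency list fell (100%, against 29.1% of all genes tested). Their median log2 fold change was -11.34 against -0.07 over all genes. For 8 of them the iMGC libraries held no count, and with those at the bound set by 3 counts over the group the median was -9.58. POU5F1, which encodes OCT4, was at 2006, 1924 and 2150.3 FPKM in the 3 hiPSC libraries and at 0.05 to 0.31 FPKM (median 0.15) in the 6 iMGC libraries (log2 fold change -13.17 ± 0.12). TDGF1, a co-receptor for NODAL, was at 245, 228 and 288 FPKM in hiPSCs and had no count in any iMGC library, which makes it at least 16100-fold lower. NANOG was at 40.4, 39.3 and 46.1 FPKM in hiPSCs and had a reading in 1 iMGC library alone, at 0.02 FPKM. No library of one culture came near a library of the other for these genes.

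Some members of the circuit kept a reading. DNMT3B, the de novo DNA methyltransferase of early embryonic cells, was at 399, 442 and 395 FPKM in hiPSCs, at 8.12, 6.96 and 7.67 in P1 and at 2.78, 3.07 and 2.47 in P5. SOX2, which both pluripotent cells and retinal progenitors use, was at 108, 92.1 and 105 FPKM in hiPSCs and at 0.41 to 0.81 FPKM (median 0.6) in iMGCs (-7.10 ± 0.11), while the day 150 ROs averaged 69.9 FPKM. Low readings of other members differed between passages. LIN28A, an RNA-binding protein that blocks let-7 maturation, was at 0.09, 0.12 and 0.07 FPKM in P1 and at 0 in all P5 libraries, whereas DPPA4 was at 0 in all P1 libraries and at 0.38, 0.27 and 0.45 FPKM in P5. In hiPSCs these genes were at 703, 758 and 631 FPKM and 219, 212 and 229 FPKM.

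The Müller glia markers were mixed at the RNA level, and the label was met there by only part of them. Of the 8 markers used to check it, VIM, CRYAB and CD44 rose, NES, GLUL and SLC1A3 fell, SOX9 was not called and RLBP1 was too low to test. VIM was at 154, 120.3 and 152 FPKM in hiPSCs, at 2157, 2181 and 2141 in P1 and at 2802, 2870.4 and 2901 in P5 (4.45 ± 0.08). CRYAB, a small heat shock protein of glia, was at 0.31, 2.38 and 0.98 FPKM in hiPSCs, 30.1, 27.8 and 32.7 in P1 and 128, 132 and 141 in P5 (6.39 ± 0.18). CD44, the hyaluronan receptor on Müller cell processes, was at 3.77, 4.64 and 4.29 FPKM and at 64.9 to 83.3 FPKM (median 75.8) in the same order of cultures (5.21 ± 0.07). All iMGC libraries were above all hiPSC libraries for these 3 genes.

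Several genes of Müller glia function did not rise against hiPSCs. GLUL, the glutamine synthetase that detoxifies glutamate, was at 74.1, 78.5 and 78.6 FPKM in hiPSCs and at 12.2 to 15.2 FPKM (median 14.2) in iMGCs (-2.17 ± 0.06). SLC1A3, the glutamate transporter GLAST, was at 7.03, 6.09 and 6.79 FPKM in hiPSCs, 0.37, 0.39 and 0.36 in P1 and 1.12, 1.22 and 1.23 in P5 (-3.01 ± 0.11). RLBP1, the retinaldehyde-binding protein CRALBP, had a reading in 1 of the 6 iMGC libraries, at 0.09 FPKM, and averaged 33.5 FPKM in day 150 ROs. The water channel AQP4 had no count in iMGCs and the potassium channel KCNJ10 stayed at or under 0.04 FPKM. SOX9 overlapped between the cultures, at 5.02, 4.26 and 5.53 FPKM in hiPSCs and 3.47 to 5.48 FPKM (median 4.38) in iMGCs, and averaged 42.6 FPKM in the ROs. The name iMGC is therefore used here as the name of the libraries. By protein staining the paper found GS, SOX9, vimentin and nestin in almost all of the cells passaged from late-stage ROs. It also recorded depolarization by glutamate, and found no CRALBP protein from passage 1 on.

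Over the whole list of 23 Müller glia genes, 20 were tested (median log2 fold change 1.64). Of these 12 rose, against 26.9% of all genes tested, and 7 fell (35.0%, near the 29.1% of all). Besides the 3 above, those that rose were SPP1, DKK3, CCL2, VEGFA, RDH10, DIO2, NFIA, NFIB and NFIX. NFIX, 1 of the nuclear factor I genes that act in late retinal progenitors and glia, went from 0.1, 0.27 and 0.15 FPKM in hiPSCs to 21.6 to 27.6 FPKM (median 24.9) in iMGCs (7.93 ± 0.15). The secreted phosphoprotein SPP1, or osteopontin, went from 3.09, 3.14 and 4.82 FPKM to 160.3 to 264 FPKM (median 213) (6.15 ± 0.12). DKK3, a secreted Wnt modulator, went from 15.6 to 318 FPKM (4.71 ± 0.07). Besides NES, GLUL and SLC1A3, those that fell were CA2, APOE, CLU and HES1. The lipid carrier APOE was already high in hiPSCs, at 568, 573 and 511 FPKM, and was at 33.8 to 40.9 FPKM (median 35.3) in iMGCs (-3.64 ± 0.07). CA2, carbonic anhydrase 2, had readings in 2 iMGC libraries, at 0.1 and 0.15 FPKM, against 2.4, 2.34 and 2.37 FPKM in hiPSCs.

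**Figure D3:**
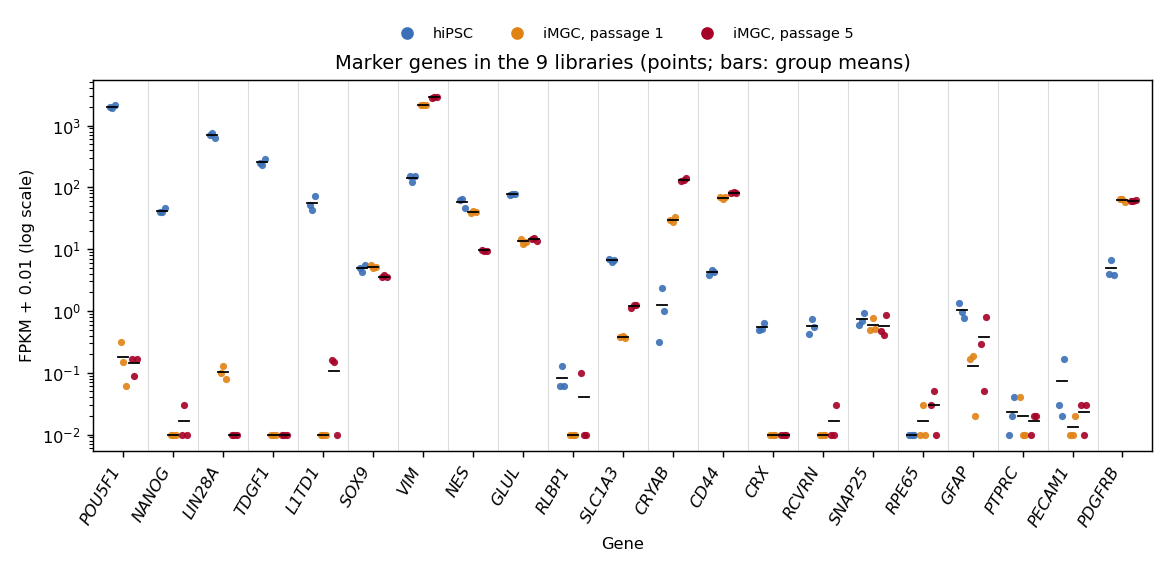
Levels (FPKM + 0.01, log axis) of 21 marker genes in each of the 9 libraries; blue, orange and red points are hiPSC, iMGC P1 and iMGC P5 libraries, and bars are group means. The 5 pluripotency genes on the left are under 1 FPKM in every iMGC library, VIM, CRYAB, CD44 and PDGFRB are above the hiPSC libraries, and GLUL and SLC1A3 are below them.

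Most markers of other retinal cells were at or near 0 in the iMGCs. Of 19 retinal neuron markers 11 were under 0.1 FPKM in every iMGC library, among them CRX and RCVRN of photoreceptors, DCX of migrating neurons and ISL1 of ganglion and bipolar cells. The summed level of the list was 46.1 to 59.7 FPKM in iMGCs, 168 to 180 in hiPSCs and 1212 to 1237 in day 150 ROs. Most of the iMGC sum was TUBB3, at 34.7 to 51.0 FPKM (median 40.3), which was higher in hiPSCs, at 146, 156 and 150.1 FPKM (-1.49 ± 0.06). SYT1, a synaptic vesicle calcium sensor, was the only tested neuron marker that was not called, with 6.99 to 8.98 FPKM (median 7.67) in iMGCs. In bulk samples fewer cells of a type and less RNA per cell cannot be told apart. The 7 blood and microglia markers summed to 0.31 to 0.94 FPKM in iMGCs, with PTPRC, TYROBP and C1QA under 0.1 in each. CSF1R, the receptor for colony-stimulating factor 1, was at 0.3 to 0.94 FPKM (median 0.35) in iMGCs and had no count in hiPSCs. This is at least 34.8-fold higher, although CSF1R was too low to be tested. The gene lies next to PDGFRB on the same strand of chromosome 5, and PDGFRB was at 58.6 to 65.5 FPKM in iMGCs. Whether reads from PDGFRB enter the CSF1R value was not tested. AIF1, the member tested, fell. Astrocyte and optic stalk markers summed to 0.4 to 1.99 FPKM, GFAP stayed under 1 FPKM in each iMGC library, and SOD3 fell (-2.90 ± 0.19). The 10 pigment epithelium markers summed to 145 to 161 FPKM in hiPSCs and 7.4 to 9.52 in iMGCs, with PMEL, a melanosome protein, and SERPINF1, or PEDF, lower by -7.96 and -2.65 (log2). PMEL alone made up most of the hiPSC sum, at 137, 126 and 119 FPKM. MITF, the pigment cell transcription factor, was the tested member that rose, from 0.27, 0.12 and 0.27 FPKM to 2.99 to 4.5 FPKM (median 4) (4.79 ± 0.18). Below the limit for testing, BEST1, a chloride channel of pigment epithelium, was at 0.28, 0.36 and 0.23 FPKM in hiPSCs and 0.46 to 0.93 FPKM (median 0.75) in iMGCs, without overlap. MLANA, a melanosome protein, had no count in hiPSCs and was at least 11.5-fold higher in iMGCs. TYRP1, an enzyme of melanin synthesis, had 3 counts in hiPSCs and 32 in iMGCs (95% counting interval of the log2 ratio 1.29 to 5.32). RPE65, TYR, DCT and TTR were under 0.1 FPKM in all iMGC libraries.

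Pericyte genes were the exception. Of the 7 endothelial and pericyte markers 4 were tested. PDGFRB, RGS5 and CSPG4 rose (75.0%, against 26.9% of all genes tested) and KDR fell (25.0%, against 29.1%). The list summed to 44.03 to 44.99 FPKM in hiPSCs and 149.6 to 167.8 in iMGCs. PDGFRB, the receptor for PDGF-BB, was at 3.99, 6.73 and 3.85 FPKM in hiPSCs and 58.6 to 65.5 FPKM (median 61.3) in iMGCs (4.13 ± 0.09). CSPG4, the proteoglycan NG2, was at 1.85, 1.71 and 1.39 FPKM and 25.8 to 29.4 FPKM (median 27.4) (4.36 ± 0.10). The endothelial genes PECAM1, CDH5 and VWF were under 0.1 FPKM in all 6 iMGC libraries. Whether these transcripts lie in the same cells as VIM was not tested.

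Part of the retinal transcription factor set was present. PAX6, the eye field factor that Müller glia keep, was at 1.64, 1.42 and 2.18 FPKM in hiPSCs, 33.2, 28.8 and 29.9 in P1 and 41.4, 45.8 and 44.5 in P5 (4.80 ± 0.11). MEIS1 and MEIS2, homeodomain partners of PAX6, rose by 5.02 and 5.17, and SIX3 and LHX2 by 1.18 and 2.58. RAX, which marks retinal progenitors and averaged 76.5 FPKM in ROs, had no count in any iMGC library. OTX2, which is active both in hiPSCs and in photoreceptor precursors, fell (-5.48 ± 0.12). None of 39 HOX genes, which mark posterior body regions, reached the test, and their highest reading in an iMGC library was 0.09 FPKM.

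Genes of epithelial junctions were at or near 0 in most cases. All 20 epithelial genes were tested and 19 fell (median -7.75). CDH1, or E-cadherin, was at 133, 124 and 104 FPKM in hiPSCs and 0 to 0.09 FPKM (median 0.05) in iMGCs (-11.14 ± 0.17). CLDN6, a claudin of tight junctions, was the most abundant member in hiPSCs, at 604, 676 and 587 FPKM, and was at 0.08 to 0.3 FPKM (median 0.24) in iMGCs (-11.05 ± 0.12). GRHL2, a transcription factor that keeps epithelial genes on, had no count in iMGCs and was at least 917-fold lower. Of the keratins KRT18 was at 313, 340.4 and 319.6 FPKM in hiPSCs, 188, 202 and 192 in P1 and 95.4, 87.3 and 88.9 in P5 and stayed just inside the 2-fold limit on the mean of both passages (-0.98 ± 0.06), while its partner KRT8 fell by 2.30 on the log2 scale. KRT19 was at 139.8, 138 and 138 FPKM in hiPSCs, 7.62, 7.05 and 7.09 in P1 and 1.59, 1.17 and 0.52 in P5 (-5.30 ± 0.11). Among junction genes OCLN, or occludin, fell by 1.81 on the log2 scale and SPINT2, a membrane serine protease inhibitor, by 1.35, both less than KRT8.

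Mesenchymal genes went mostly up. Of 13 tested genes of that list 8 rose (61.5%, against 26.9% of all genes tested) and 3 fell (23.1%, near the 29.1% of all). The median was 4.41. CDH2, or N-cadherin, was at 8.93, 9.01 and 9.14 FPKM in hiPSCs and 171 to 187 FPKM (median 182) in iMGCs (4.56 ± 0.06), and CDH11 was at 7.32, 7.37 and 6.22 FPKM and 84.7 to 92.7 FPKM (median 89.4) (4.41 ± 0.07). The repressors of epithelial genes SNAI2, ZEB1 and ZEB2 rose by 6.83, 6.82 and 5.77. SNAI2 was at 0.27, 0.5 and 0.73 FPKM in hiPSCs and 43.1 to 52.4 FPKM (median 46.5) in iMGCs, and ZEB1 at 0.37, 0.28 and 0.43 FPKM and 17.9 to 20.4 FPKM (median 18.5). SNAI1, THY1 and S100A4 went against the list. SNAI1 was at 9.32, 7.33 and 8.4 FPKM in hiPSCs and 2.22 to 3.33 FPKM (median 2.96) in iMGCs (-1.28 ± 0.12), and the surface protein THY1, which hiPSCs also carry, fell by 2.08 on the log2 scale. ZEB1, ZEB2 and CDH2 were also present in day 150 ROs, at 34.4, 54.8 and 120.1 FPKM, where SNAI2 averaged 0.463.

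Promoter sequence was read beside these values. SNAI and ZEB proteins bind the E-box CACCTG, read as CAGGTG on the opposite strand. RefSeq windows of GRCh38.p14 from 250 bases before to 50 after a start site were found for 10460 of the 12828 genes tested (81.5%). They held the E-box in 18.1% of genes tested (20.6% of all 27305 promoters), in 16.2% of the 597 genes that rose at least 10-fold and in 27.5% of the 828 that fell at least 10-fold. The 2 epithelial genes with the largest fall among those whose window holds it are shown, with the E-box in capitals.

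RAB25 (chr1:156060910-156061209, plus strand): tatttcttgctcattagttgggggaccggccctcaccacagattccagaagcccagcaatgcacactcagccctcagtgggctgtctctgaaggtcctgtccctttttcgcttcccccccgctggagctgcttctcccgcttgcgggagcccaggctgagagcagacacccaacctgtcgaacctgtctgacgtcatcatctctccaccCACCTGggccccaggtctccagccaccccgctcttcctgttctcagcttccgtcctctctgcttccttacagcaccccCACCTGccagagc
CLDN6 (chr16:3018134-3018433, minus strand): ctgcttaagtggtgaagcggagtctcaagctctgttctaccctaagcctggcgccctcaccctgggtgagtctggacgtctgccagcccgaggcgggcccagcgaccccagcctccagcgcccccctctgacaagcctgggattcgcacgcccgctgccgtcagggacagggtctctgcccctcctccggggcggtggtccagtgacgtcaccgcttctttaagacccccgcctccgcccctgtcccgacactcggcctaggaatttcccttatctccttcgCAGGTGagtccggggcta

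The windows of RAB25 and CLDN6 span the start site at base 251. In RAB25 the E-box letters start 41 bases before the start site and at base 38 of the transcript, and in CLDN6 at base 33 of the transcript. RAB25, a small GTPase of epithelial recycling, was at 38.9, 34.6 and 37.9 FPKM in hiPSCs and had 1 count over the 6 iMGC libraries, which gives a 95% counting interval for the log2 ratio of -17.01 to -9.23. Only 10 of the 20 epithelial genes had a window (50%), and 5 of those 10 held the E-box, too few to stand for the list. A match of letters is a description and not a bound site.

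Matrix genes rose nearly without exception. All 29 were tested, 26 rose and none fell (89.7% against 26.9% of all genes, median 4.11). FN1 was at 29.4, 37.4 and 33.4 FPKM in hiPSCs and 8173 to 9216 FPKM (median 8677) in iMGCs (8.25 ± 0.11). TGFBI, a matrix protein induced by TGF-β, was at 4.96, 7.71 and 7.2 FPKM in hiPSCs, 2762, 2919 and 2787 in P1 and 3969, 3887 and 3879 in P5 (9.28 ± 0.14). COL1A1, the main chain of fibrillar collagen I, was at 19.1, 19.0 and 18.1 FPKM and 1946 to 2352 FPKM (median 2078) (7.16 ± 0.08). No hiPSC library came near an iMGC library for these 3 genes.

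Basement membrane and fibril genes rose as well. COL4A1 and COL4A2, the collagen IV chains of basement membranes, rose by 5.16 and 4.25. FBN1, the fibrillin of microfibrils, was at 0.87, 1.08 and 1.11 FPKM in hiPSCs and 207 to 279 FPKM (median 238) in iMGCs (8.21 ± 0.09). LUM, a small proteoglycan of collagen fibrils, was at 0.02, 0.19 and 0.18 FPKM and 41.5 to 61.8 FPKM (median 51.5) (8.90 ± 0.19). Collagen VI chains split. COL6A3 rose (2.78 ± 0.27), while COL6A1 and COL6A2 were not called, with -0.61 and -0.29, and the basement membrane linker NID1 was not called either (0.36 ± 0.09). A trace of stromal collagen differed among hiPSC libraries, with COL3A1 at 0.08, 2.48 and 2.82 FPKM; iMGCs were at 9.78 to 29.2 FPKM (median 17.5) (3.49 ± 0.45). Day 150 ROs averaged 8.95 FPKM of FN1 and 2.77 of COL1A1.

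Genes that fold and cross-link collagen were mostly higher. Of 19 genes 16 rose (84.2%, against 26.9% of all genes tested) and 1 fell (5.26%, against 29.1%), with a median of 2.46. LOXL2, a lysyl oxidase that cross-links collagen, was at 37.6, 33.6 and 30.3 FPKM in hiPSCs and 337 to 363 FPKM (median 346) in iMGCs (3.69 ± 0.08), and LOX of the mesenchymal list was at 1.35, 1.17 and 1.28 FPKM and 208 to 315 FPKM (median 255) (8.13 ± 0.08). PLOD2, a lysyl hydroxylase, rose by 3.67, BMP1, which trims procollagen, by 4.95, and CALU, a calcium-binding protein of the secretory pathway, by 3.23. The collagen chaperone SERPINH1 was not called (-0.45 ± 0.07) and was abundant in hiPSCs, at 313, 345 and 286 FPKM. PCOLCE, the enhancer of procollagen trimming, was at 18.3, 22.0 and 18.8 FPKM in hiPSCs, 2.27, 2.7 and 2.44 in P1 and 13.6, 12.0 and 12.2 in P5. It was called lower on the mean of both passages (-1.51 ± 0.10), but that call rested on P1 (-2.73 alone), since with P5 alone it was at -0.32.

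Actin bundle genes rose without a member that fell. Of 16 genes 15 rose (93.8%, against 26.9% of all genes tested, median 2.46). ACTA2, the smooth muscle actin, was at 2.81, 3.05 and 4.32 FPKM in hiPSCs and 241 to 294 FPKM (median 273) in iMGCs (6.84 ± 0.11). TAGLN, or transgelin, was at 73.2, 92.8 and 88.2 FPKM and 1789 to 2007 FPKM (median 1846) (4.84 ± 0.09). Passages differed for a pair of members. CNN1, or calponin 1, was at 7.65, 6.51 and 7.35 FPKM in hiPSCs, 86.5, 93.6 and 93.8 in P1 and 14.2, 15.1 and 14.0 in P5, and the light chain MYL9 followed the same order. CNN2 was not called (0.08 ± 0.07).

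Targets of YAP and TEAD, which read out spreading and tension of adherent cells, and caveola genes moved the same way. Of 15 YAP and TEAD targets 12 rose (80.0%, against 26.9% of all genes tested) and none fell (median 2.74). ANKRD1 was at 0.08, 0.03 and 0.22 FPKM in hiPSCs and 207 to 262 FPKM (median 232) in iMGCs (11.29 ± 0.17). CTGF, the matricellular factor CCN2, was at 20.1, 23.8 and 20.4 FPKM and 419 to 476 FPKM (median 444) (4.68 ± 0.09), and CYR61, or CCN1, at 21.4, 25.7 and 21.0 FPKM and 274 to 322 FPKM (median 301) (4.02 ± 0.09). AMOTL1, NUAK2 and FJX1 were not called. Of 5 tested caveola genes CAV1, CAV2, CAVIN1 and EHD2 rose by 3.66 to 5.82 (80.0%, against 26.9% of all genes tested). CAVIN3 went against them, from 16.0, 10.3 and 16.1 FPKM in hiPSCs to a reading in 1 iMGC library, at 0.1 FPKM.

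The windows of ANKRD1 and CTGF, the 2 targets with the largest rise among those that hold the TEAD letters, are shown with GGAATG, or CATTCC for the opposite strand, in capitals. The windows of MYLK and TPM4 follow, contractile genes with the CArG box of serum response factor in capitals.

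ANKRD1 (chr10:90921038-90921337, minus strand): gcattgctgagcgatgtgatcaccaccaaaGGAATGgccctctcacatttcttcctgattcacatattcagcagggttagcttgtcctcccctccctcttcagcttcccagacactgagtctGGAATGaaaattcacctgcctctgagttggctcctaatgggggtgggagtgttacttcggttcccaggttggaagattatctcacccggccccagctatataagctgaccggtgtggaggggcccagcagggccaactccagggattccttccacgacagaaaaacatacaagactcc
CTGF (chr6:131951323-131951622, minus strand): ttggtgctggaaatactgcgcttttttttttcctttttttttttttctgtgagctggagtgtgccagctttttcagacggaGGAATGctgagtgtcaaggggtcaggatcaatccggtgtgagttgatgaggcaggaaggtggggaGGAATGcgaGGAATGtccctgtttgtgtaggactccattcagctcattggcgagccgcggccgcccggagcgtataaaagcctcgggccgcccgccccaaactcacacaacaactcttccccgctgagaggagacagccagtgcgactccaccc
MYLK (chr3:123620499-123620798, minus strand): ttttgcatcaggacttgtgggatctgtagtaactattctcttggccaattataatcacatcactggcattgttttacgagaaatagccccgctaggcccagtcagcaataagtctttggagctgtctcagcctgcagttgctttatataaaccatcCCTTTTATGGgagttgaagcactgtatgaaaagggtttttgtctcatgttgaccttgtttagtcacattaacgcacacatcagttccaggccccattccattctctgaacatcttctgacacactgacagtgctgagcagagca
TPM4 (chr19:16067288-16067587, plus strand): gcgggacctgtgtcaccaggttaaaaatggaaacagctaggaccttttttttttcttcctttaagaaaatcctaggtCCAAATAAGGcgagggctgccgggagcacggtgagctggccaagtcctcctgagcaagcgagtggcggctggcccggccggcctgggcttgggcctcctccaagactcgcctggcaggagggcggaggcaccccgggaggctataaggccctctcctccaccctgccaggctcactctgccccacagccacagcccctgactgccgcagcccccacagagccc

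TEAD letters stood 220 and 128 bases before the start site of ANKRD1 and 169, 104 and 95 bases before that of CTGF. They occurred in 14.0% of all promoters, in 10.6% of windows of genes tested, in 13.4% of those that rose at least 10-fold and in 9.78% of those that fell at least 10-fold. Among the 11 YAP and TEAD targets with a window 5 held them (45.5%). The CArG box stood 94 bases before the start of MYLK and 173 bases before that of TPM4. It was found in 4 of the 14 contractile genes with a window (28.6%), in 1.12% of genes tested and in 1.29% of all promoters. MYLK, the myosin light chain kinase, rose by 4.43 and TPM4, a cytoskeletal tropomyosin, by 1.87. The AP-1 letters TGANTCA, which read the same on both strands, occurred in 9.38% of windows of genes that rose at least 10-fold, 5.31% of those that fell at least 10-fold, 4.23% of genes tested and 7.76% of all promoters.

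Cell division genes were lower in the iMGCs. Of 25 cell cycle genes 24 fell (96.0%, against 29.1% of all genes tested) and 1 rose (median -3.35). AURKB, a mitotic kinase, was at 104, 118 and 114 FPKM in hiPSCs and 2.03 to 3.36 FPKM (median 2.38) in iMGCs (-5.13 ± 0.10). CDC20, which activates the anaphase-promoting complex, was at 192, 208 and 195 FPKM and 3.61 to 6.59 FPKM (median 5.51) (-4.90 ± 0.08). The replication helicase genes MCM2 to MCM7 fell by 2.02 to 4.49 on the log2 scale. MKI67, the Ki-67 antigen, was not 0 in iMGCs, at 3.24 to 4.48 FPKM (median 3.51) against 18.6, 17.2 and 13.6 FPKM in hiPSCs (-1.84 ± 0.09). The exception was CCND1, or cyclin D1, which rose from 38.2, 42.0 and 34.3 FPKM to 81.5 to 102 FPKM (median 96.8) (1.62 ± 0.08). The NF-Y letters CCAAT, or ATTGG on the opposite strand, were in 17 of the 20 cell cycle windows found (85%), in 36.6% of those of genes tested and in 35.7% of all promoters.

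Inhibitors of cyclin-dependent kinases and secreted genes often read as senescence markers were higher. Of 15 genes 9 rose, against 26.9% of all genes tested, and 3 fell, a share under the 29.1% of all (median 2.65). CDKN1A, or p21, was at 14.0, 12.2 and 12.5 FPKM in hiPSCs and 284 to 329.6 FPKM (median 306) in iMGCs (4.87 ± 0.07). CDKN2A, which encodes p16 and p14ARF, was at 0.29, 0.08 and 0.14 FPKM and 27.8 to 37.4 FPKM (median 30.4) (8.16 ± 0.23), and its neighbour CDKN2B at 0.01, 0 and 0.05 FPKM and 22.6 to 35.5 FPKM (median 29.1) (10.52 ± 0.19). None of these 3 genes was called between P1 and P5. LMNB1, the nuclear lamin B1, fell (-4.00 ± 0.07), and so did HMGB2 and CDKN1C.

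Genes of chromatin and RNA processing separated the cultures too. Of 7 tested DNA methylation genes DNMT1, DNMT3A, UHRF1 and TET1 fell (57.1%, against 29.1% of all genes tested) and TET2 rose (14.3%, against 26.9%). TET2 was at 0.34, 0.25 and 0.26 FPKM in hiPSCs and 4.51 to 5.43 FPKM (median 5.01) in iMGCs (4.38 ± 0.10), and TET1 at 8.79, 6.47 and 7.38 FPKM and 0.39 to 0.82 FPKM (median 0.56) (-3.44 ± 0.11). Among 14 splicing regulators 7 fell (50%, against 29.1% of all genes tested) and 3 rose (21.4%, under the background of 26.9%). ESRP1 and ESRP2, the epithelial splicing regulators, fell by 10.48 and 7.07 on the log2 scale, and MBNL1 and MBNL2, whose proteins favour splice forms of differentiated cells, rose by 4.62 and 6.55. MBNL2 was at 0.35, 0.59 and 0.3 FPKM in hiPSCs and 20.8 to 28.3 FPKM (median 23.1) in iMGCs, so that the groups were far apart. RBFOX2 and QKI were not called.

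Energy and biosynthesis genes were lower in iMGCs, with the transcripts of the mitochondrial genome higher. Of 21 glycolysis and lactate genes 15 fell (71.4%, against 29.1% of all genes tested) and none rose (median -1.53). SLC2A3, a high-affinity glucose transporter, was at 529, 537 and 471 FPKM in hiPSCs and 22.7 to 25.7 FPKM (median 24.4) in iMGCs (-4.09 ± 0.06). ENO1, or enolase 1, was at 3352, 3220.5 and 3333 FPKM and 567 to 661 FPKM (median 597) (-2.14 ± 0.05). GAPDH and PKM stayed inside the 2-fold limit, at -0.89 and -0.62. Of 20 genes of serine, one-carbon and nucleotide synthesis 16 fell (80.0%, against 29.1% of all genes tested) and none rose (median -1.66). GLDC, the glycine decarboxylase, was at 56.6, 59.6 and 52.7 FPKM and 0.53 to 1.48 FPKM (median 0.98) (-6.22 ± 0.09), and PHGDH, the first enzyme of serine synthesis, at 349.7, 358 and 351 FPKM and 25.9 to 29.7 FPKM (median 26.7) (-3.40 ± 0.05).

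Of the 13 mitochondrially encoded genes 11 rose (84.6%, against 26.9% of all genes tested) and none fell (median 1.66). Together they took 2.40 to 3.97% of the hiPSC counts and 6.92 to 8.41% of the iMGC counts. MT-CYB, or cytochrome b, was at 1587, 2075 and 1312 FPKM in hiPSCs and 5977 to 7330.1 FPKM (median 6678) in iMGCs (2.31 ± 0.13). The hiPSC libraries differed among themselves for all of these genes, with replicate 2 highest and replicate 3 lowest. MT-ND1 and MT-CO3 stayed inside the 2-fold limit (0.95 and 0.85), and passed it without hiPSC replicate 2 (1.17 and 1.11). The part of these differences between hiPSC libraries in the result was not tested.

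Cytosolic ribosomal protein genes had a median below 0, and its size depended on how the libraries were scaled. Of 81 tested 28 fell (34.6%, near the 29.1% of all genes tested) and 1 rose (1.23%, against 26.9%), with a median of -0.82. With total counts alone 48 fell, and with a trend on transcript length removed 6 fell and 2 rose, with a median of -0.07. RPS2 was at 5197, 5011 and 5166 FPKM in hiPSCs and 1552 to 1654 FPKM (median 1601) in iMGCs (-1.37 ± 0.05). The members at the ends of the list were variants of the core set. RPL39L, a copy of RPL39 used in the germline and in pluripotent cells, fell (-4.34 ± 0.13), and RPS27L, a p53 target, rose (2.83 ± 0.07). Pseudogenes share sequence with this family, so single values are less certain.

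Lysosome genes were mostly higher. Of 22 genes 13 rose (59.1%, against 26.9% of all genes tested) and 2 fell (9.09%, against 29.1%), with a median of 1.42. CTSB, or cathepsin B, was at 27.4, 27.5 and 23.4 FPKM in hiPSCs and 418 to 451 FPKM (median 438) in iMGCs (4.49 ± 0.08). LAMP2, a membrane protein of lysosomes, was at 21.6, 17.5 and 19.8 FPKM and 119.9 to 142 FPKM (median 131) (3.12 ± 0.07). CTSK and GUSB went the other way, with -2.99 and -1.51.

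Secreted signals were among the strongest rises. Of 18 tested growth factors 14 rose (77.8%, against 26.9% of all genes tested) and 1 fell (median 5.38, the highest of all lists). TGFB2 was at 0.33, 0.29 and 0.35 FPKM in hiPSCs and 166 to 189 FPKM (median 175) in iMGCs (9.38 ± 0.09). INHBA, whose product forms activin A, was at 0.1, 0.09 and 0.13 FPKM and 79.2 to 112 FPKM (median 92.6) (10.61 ± 0.11). Neurotrophic factors that Müller glia are known to supply were included: BDNF rose by 3.09 and GDNF by 5.30. GDNF was at 0.34, 0.19 and 0.48 FPKM in hiPSCs, 8.2, 5.97 and 5.32 in P1 and 6.32, 5.66 and 6.63 in P5. BMP4 fell (-2.06 ± 0.23), and FGF2, VEGFB and PDGFA were not called.

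Receptors for such signals went both ways. Of 18 tested 9 rose (50%, against 26.9% of all genes tested) and 6 fell (33.3%, near the background of 29.1%). All 4 FGF receptors fell, with FGFR1 at 202, 203 and 173 FPKM in hiPSCs and 27.8 to 40.0 FPKM (median 33.3) in iMGCs (-2.39 ± 0.06) and FGFR4 at -5.77. ERBB3 fell (-8.37 ± 0.19) and EGFR rose, from 1.11, 1.39 and 0.96 FPKM to 18.7 to 23.0 FPKM (median 21.2) (5.12 ± 0.08). IL6ST, the shared subunit gp130 of the receptors for LIF and IL-6, was at 0.64, 0.52 and 0.63 FPKM and 45.8 to 49.3 FPKM (median 47.6) (6.44 ± 0.08). TGFBR2, MET and BMPR2 rose by 3.43, 3.89 and 3.68.

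Immune genes were higher at several levels. Of 8 tested cytokines and chemokines 7 rose (87.5%, against 26.9% of all genes tested). LIF was at 2.52, 2.85 and 1.41 FPKM in hiPSCs and 59.4 to 81.4 FPKM (median 68.1) in iMGCs (5.58 ± 0.08). CXCL12 was not called on the mean of the passages, with P1 under and P5 over the hiPSCs, at 9.51, 11.8 and 9.7 and 44.9, 47.7 and 43.3 FPKM against 26.8, 27.6 and 25.5 FPKM. Of 12 antigen presentation genes 9 rose (75.0%, against 26.9% of all genes tested) and none fell (median 1.49). B2M, the light chain of class I molecules, was at 58.5, 55.6 and 74.5 FPKM and 727 to 758 FPKM (median 751) (3.87 ± 0.09). HLA-B rose (3.63 ± 0.07), whereas HLA-C was not called (0.44). Genes of this family are near copies, and how reads were split among them is not known.

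**Figure D4:**
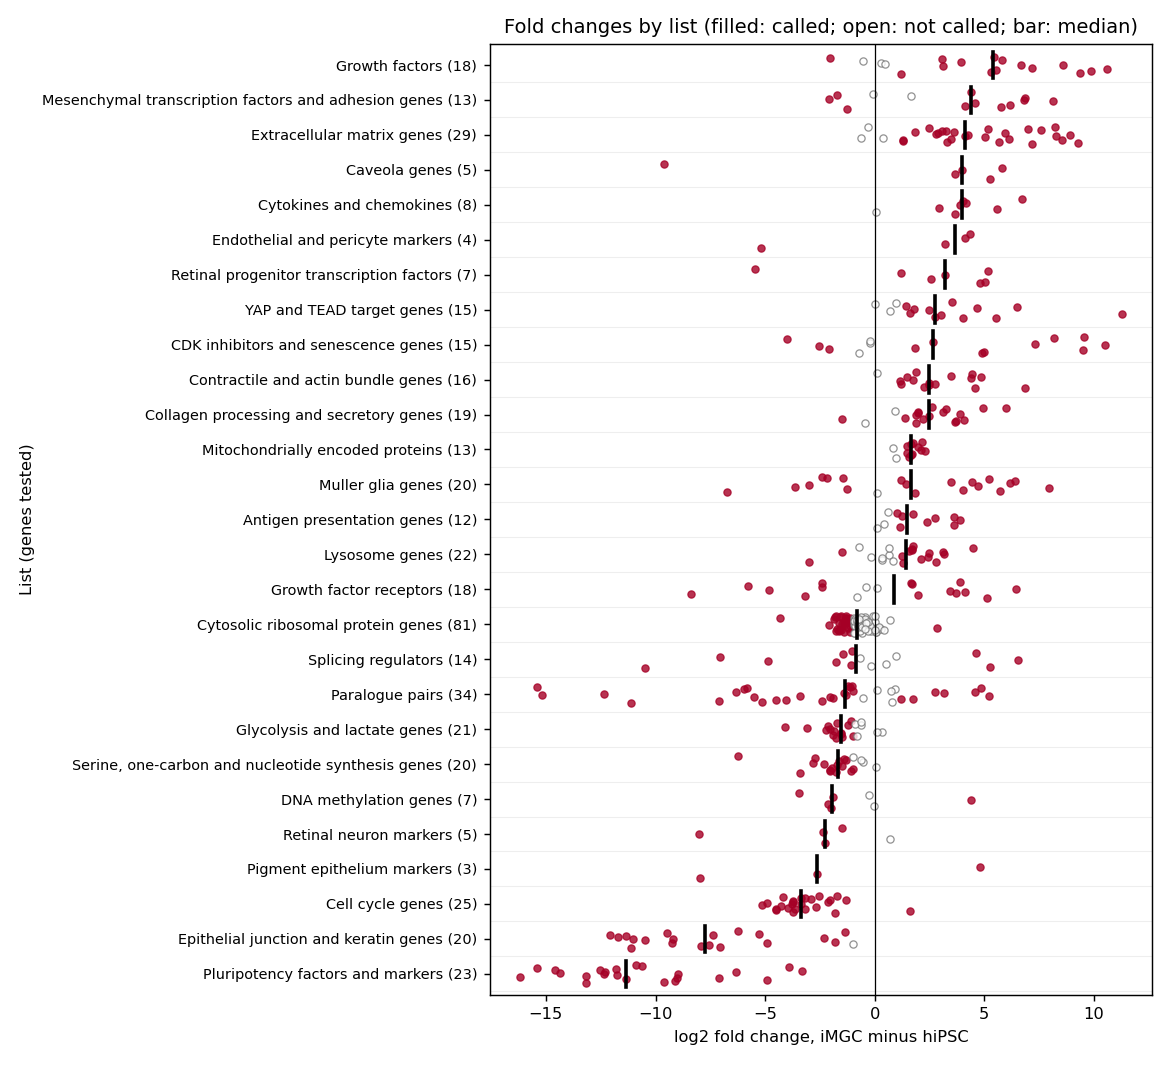
Each point is the fold change (log2, iMGC minus hiPSC) of a tested list member, filled where called and open where not, and black bars are list medians; lists with at least 3 tested genes are ordered by median and the number tested is in brackets. Medians run from -11.34 for the pluripotency list to 5.38 for the growth factors, and CAVIN3, CCND1 and TET2 are among those that stand opposite to the rest of their lists.

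Some related genes went opposite ways and others together. Among 18 listed pairs of related genes CDH1 fell and CDH2 rose, and MYH10 fell and MYH9 rose. The listed surface proteins CD24, which fell, and CD44, which rose, are not paralogues. MYH10, non-muscle myosin IIB, was at 80.4, 75.7 and 67.6 FPKM in hiPSCs and 24.1 to 27.8 FPKM (median 26.4) in iMGCs (-1.23 ± 0.06), and MYH9, non-muscle myosin IIA, at 115, 124 and 92.1 FPKM and 734 to 878 FPKM (median 798) (3.16 ± 0.10). In other pairs both fell. CRABP1, a retinoic acid carrier, was at 394, 355 and 389 FPKM in hiPSCs and had no count in iMGCs, at least 7910-fold lower, and CRABP2 fell to 18.4 to 34.0 FPKM (median 26.4) (-2.40 ± 0.07). In day 150 ROs CRABP1 averaged 515 FPKM. LDHA and LDHB both fell, by 2.02 and 1.01 on the log2 scale, and LDHB was no longer called without hiPSC replicate 3 (-0.85), P1 replicate 1 (-0.98) or P5 replicate 2 (-0.99).

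Of 435 tested numbered zinc finger genes 122 rose (28.0%, against 26.9% of all genes tested) and 69 fell (15.9%, against 29.1%), with a median of 0.30. With total counts alone 89 rose and 107 fell, against 2805 and 4594 of all 12828 genes tested, and the median was -0.01.

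Many genes were read in a single culture. By the limits of at least 1 FPKM in every library of a culture and under 0.1 in every library of the other, 419 genes were on in hiPSCs alone and 74 in iMGCs alone, while 9877 reached 1 FPKM in all 9 libraries. A gene on in iMGCs had to pass in 6 libraries over both passages and a gene on in hiPSCs in 3, so these counts are not an even comparison. Examples were taken by their mean level, after the values were seen. The iMGC-only genes with the highest mean were CPA4, SLAMF7, F2RL2 and GBP1. CPA4, a secreted carboxypeptidase, was at 0, 0.03 and 0 FPKM in hiPSCs, a single count in all, at 584, 565 and 538 in P1 and at 236, 218 and 237 in P5. It also had the largest fitted rise (14.76, with a 95% counting interval of 12.98 to 20.76). It was followed by GREM1, a secreted BMP antagonist, at 0.06, 0.08 and 0.16 FPKM in hiPSCs and 673 to 836 FPKM (median 743) in iMGCs (12.68 ± 0.14). The 10 largest rises also held MAP3K7CL, SLAMF7, FILIP1L, ANKRD1, FAM198B, SYNC, IL7R and INHBA.

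Beside pluripotency genes the largest falls were of NPTX1, EPHA1, SLC7A3, CNMD, LARGE2 and IGLON5. NPTX1, a neuronal pentraxin, was at 54.4, 37.0 and 41.6 FPKM in hiPSCs and had 1 count over the 6 iMGC libraries (95% counting interval of the log2 ratio -19.47 to -11.69). SLC7A3, an arginine transporter, was at 79.0, 93.0 and 81.3 FPKM and had 2 counts (-15.94 to -11.04). CRABP1, TDGF1, CDH1 and ZSCAN10 had the highest hiPSC means among the hiPSC-only genes. ZSCAN10, a zinc finger factor of pluripotent cells, averaged 92.5 FPKM and had no count in iMGCs. MYCN averaged 52.4 FPKM in hiPSCs and 0.0233 in iMGCs.

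Fewer genes differed between the passages than between the cultures. Between P5 and P1, 466 of the 12828 genes were called (3.63%), 290 higher in P5 (2.26%) and 176 lower (1.37%). Of the 7190 genes that separated iMGCs from hiPSCs, 384 were also called between passages (5.34%). Among those 7190 genes the median absolute log2 fold change was 2.07 between cultures and 0.165 between passages. The 7190 genes were kept for a culture difference of at least 2-fold, so these medians are not an even comparison. Fitted alone, P1 gave 7178 calls against hiPSCs and P5 gave 7226. Leaving out the HOX, zinc finger and ribosomal lists, 30 list genes were called in both comparisons, 17 higher and 13 lower in P5. Their share of the list genes was not compared with the 5.34%.

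Among the genes that were higher in P5 were CRYAB, POSTN, LAMA4 and IL6. POSTN, the matrix protein periostin, was at 0.14, 0.98 and 1.32 FPKM in hiPSCs, 10.7, 8.77 and 8.46 in P1 and 46.0, 50.9 and 47.6 in P5 (P5 minus P1 2.43). PRRX1, a mesenchymal homeobox gene, was not called against hiPSCs (1.65 ± 0.77) but differed between passages, at 0.01, 0 and 0.03 FPKM in P1 and 2.11, 1.48 and 1.65 in P5. Lower in P5 were CNN1, NES and KRT19. NES, the intermediate filament nestin of neural progenitors, was at 62.2, 66.1 and 45.7 FPKM in hiPSCs, 38.1, 41.0 and 39.6 in P1 and 9.82, 9.44 and 9.31 in P5 (P5 minus P1 -2.0). Against hiPSCs, NES in P1 stayed inside the 2-fold limit (-0.29) and P5 was lower (-2.28), while POSTN was higher in both passages.

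**Figure D5:**
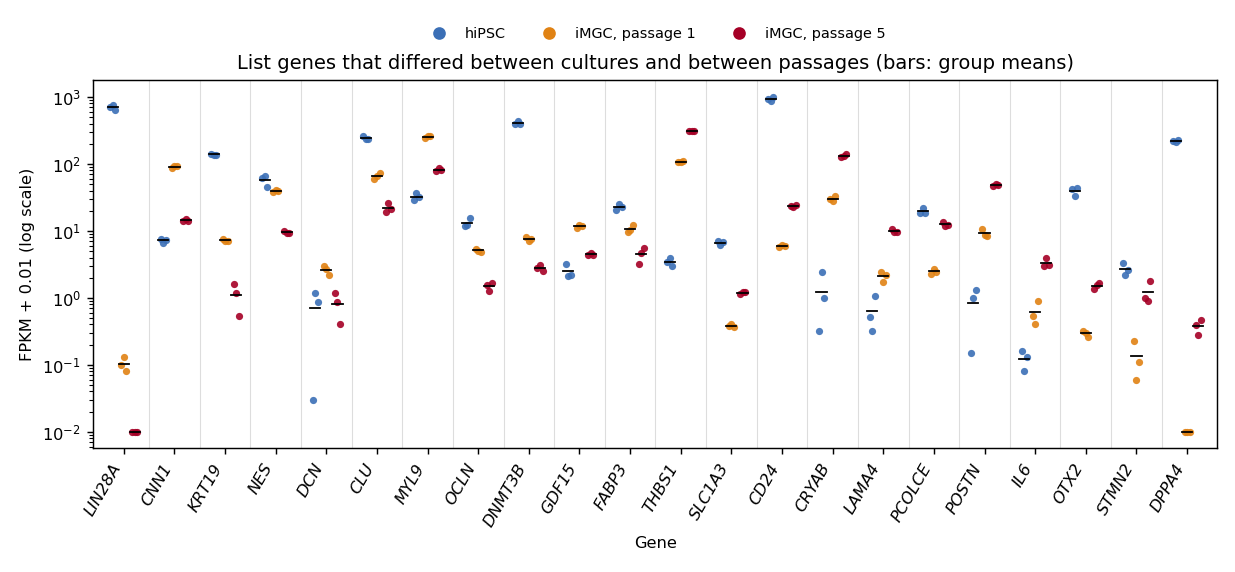
Levels (FPKM + 0.01, log axis) in the 9 libraries of 22 list genes that were called both between cultures and between passages, ordered by the change from P1 to P5; blue, orange and red points are hiPSC, P1 and P5 libraries and bars are group means. LIN28A, CNN1, KRT19 and NES on the left were lower in P5, and STMN2 and DPPA4 on the right were higher.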

How the data were processed

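Per the methods, RNA was poly(A) selected, sequenced as paired ends and aligned with HISAT2, with StringTie and RSEM downstream. Versions, genome build and annotation are not given in the sources used here. The authors deposited RSEM expected counts and FPKM per gene, in a table with the hiPSCs and a separate table with the iMGCs. The expected counts were rounded to whole numbers for the fit. FPKM values come from separate tables, so levels set side by side were not tested. Another table and 6 columns that matched no single sample were not used.

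Genes at 1 FPKM or more in at least 3 of the 9 libraries were fitted with edgeR 4.0.16 (R 4.3.3), with TMM factors and the quasi-likelihood test on means of hiPSC, P1 and P5. The contrasts were the mean of P1 and P5 minus hiPSC, and P5 minus P1. Every adjusted p is Benjamini-Hochberg over all genes tested, and the largest among the called genes named was 2.576e-06. limma 3.58.1 and DESeq2 1.42.0 served as alternatives. In simulated counts for iMGC against hiPSC over 12828 genes, edgeR called 200 of 200 genes changed 4-fold and 2 unchanged genes. Only those 200 genes differed there. The rate of wrong calls with as many differences as between the cultures was not tested. Replicates differed by more than counting noise (chi-square per degree of freedom 2.325 to 33.65), and where they are not separate cultures p-values measure technical spread. Counting intervals are exact at 95% and, like the limit of 3 counts, cover counting error only. Strand use in counting is not given, so genes that overlap others are less certain.

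Text genes came from lists by pathway and cell type, the 10 largest rises and falls among called genes whose groups do not overlap, with a mean of at least 10 FPKM in the higher culture and at least 1 count in the lower. Members and lists were chosen with earlier results of these data known. Promoter windows and coordinates are from RefSeq on GRCh38.p14, and no window of a gene on chromosome 8 is shown. Results of some list members are not reported here, though counts and medians of the lists include them.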

Additional observations from a re-analysis of the deposited data

Results flagged for a closer look

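Among the 147 named genes checked over the 6 iMGC libraries, 3 had a library apart from the other 5. For 6 libraries of a single population chance gives about 1 in 20. Both passages were pooled here, so that rate does not apply to genes that differ between passages. For APOE, P1 replicate 2 was at 40.9 FPKM and the next at 35.74, a gap of 0.725 of the range. For FILIP1L, P5 replicate 3 was at 109.44 FPKM and the next at 103.52 (0.711). For BMPR2, P1 replicate 1 was lowest at 23.45 FPKM, before 24.65 (0.642). All 3 gaps are small beside the difference from hiPSCs.

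The difference from hiPSCs depended on passage for 27 named genes, by the edgeR test of P5 minus P1 itself (log2 values, adjusted p at most 0.005041). Over all 12828 genes tested 466 were called between passages (3.63%). The named genes were picked and not a random draw from these, so their count was not compared with that share. Higher in P5 were DPPA4 (7.34), PRRX1 (6.69), STMN2 (3.25), OTX2 (2.92), IL6 (2.67), POSTN (2.43), PCOLCE (2.40), LAMA4 (2.37), CXCL12 (2.14), CRYAB (2.14), CD24 (2.04), SLC1A3 (1.88), COL6A3 (1.28), GLDC (1.06) and IL7R (1.02). Lower in P5 were LIN28A (-5.62), CNN1 (-2.64), KRT19 (-2.63), NES (-2.0), CLU (-1.63), MYL9 (-1.60), OCLN (-1.57), DNMT3B (-1.41), SLAMF7 (-1.38), CPA4 (-1.22), LHX2 (-1.11) and KRT18 (-1.04). LIN28A had 16 counts in P1 and none in P5, and DPPA4 none in P1 and 51 in P5, so their fitted values depend on the prior count. Against a floor of 3 counts over the passage without any, LIN28A was at least 5.11-fold lower in P5 and DPPA4 at least 17.7-fold higher, and both stayed under 1 FPKM in every iMGC library. PRRX1 had 3 counts in P1 and 331 in P5 (95% counting interval of the log2 ratio 5.29 to 9.13).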

How the results depend on the processing

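The number of genes called between cultures was 6463 to 9438 over all alternatives, the highest with every gene that had a count (17563 genes tested), and 7059 to 7303 when single libraries were left out. Between passages 152 genes were called with limma at a pseudocount of 1 and 152 in a test against a 2-fold change, and 428 to 484 without single libraries. Genes on in iMGCs alone numbered 46 with a limit of 2 FPKM and 11 against 0 counts, and those on in hiPSCs alone 278 and 162. Differences in composition kept their direction without single libraries, at 7.735 to 8.107 points for the 10 genes with most counts, 4.166 to 4.948 for mitochondrially encoded genes, 10.71 to 11.01 for matrix genes, -4.334 to -4.034 for ribosomal protein genes, 5.852 to 5.987 for FN1 and -847.2 to -795.7 genes at 1 FPKM, but 6 against 2 libraries allow no p under 0.0714. As shares of summed FPKM the direction was kept and the size was not: 8.924 points for the 10 top genes, 11.74 for mitochondrially encoded genes, 4.478 for matrix genes, -8.194 for ribosomal protein genes and 2.047 for FN1.

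Replicate numbers did not pair the libraries (correlations of deviations for shared numbers -0.024 to 0.021). With the replicate block 7189 genes were called between cultures and 469 between passages.

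Of 4209 fold changes of named genes under alternatives 34 changed sign, all of genes not called in the main contrast. SOX9 was at -0.12 with P5 alone, -0.18 and -0.15 with limma at 0.1 and 1, -0.19 with total counts and -0.0 with upper-quartile scaling. In the same order of both limma settings and total counts, CNN2 was at -0.2, -0.2 and -0.22, FJX1 at -0.27, -0.23 and -0.27, CXCL12 at -0.3, -0.27 and -0.27, and VEGFB at -0.06, -0.06 and -0.03. Upper-quartile scaling gave -0.03 for CNN2, -0.08 for FJX1 and -0.08 for CXCL12. P5 alone gave -0.03 for FJX1, and P1 alone -1.05 for CXCL12 and -1.72 for PRRX1. With the length trend removed NID1 was at -0.18, SERPINH1 at 0.08, AMOTL1 at -0.05 and FGF2 at -0.07, and FGF2 was at -0.11 and -0.1 with limma. Leaving out single libraries gave -0.1 to 0.19 for FJX1 and -0.02 to 0.08 for CXCL12.

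Calls were lost, beside those given above, with the length trend removed for HES1 (-0.79), TUBB3 (-0.85), SNAI1 (-0.64), S100A4 (-0.97), PCOLCE (-0.88), SPINT2 (-0.7) and RPS2 (-0.63), with limma at 1 for NFIA (0.54), RDH10 (0.91) and DIO2 (0.97), and with total counts for VEGFA (0.9) and SIX3 (0.87). NES lost its call with P1 alone (-0.29) and with the 6 iMGC libraries as 1 group (-0.96), PCOLCE with P5 alone (-0.32) and as 1 group (-1.07), SIX3 and STMN2 with P5 alone (0.97 and -0.73) and VEGFA with P1 alone (0.99). Both limma settings gave 0.82 and 0.79 for VEGFA and 0.85 and 0.7 for SIX3. LDHB was at -0.3 with the length trend removed and -1.0 with the replicate block. Left-out hiPSC libraries brought calls for KRT18 (-1.01 without replicate 1 or 3), AMOTL1 (1.12) and PRRX1 (2.2) without replicate 2, and QKI (1.02) without replicate 1. The cause was not tested in these cases. Depth limits statements on genes under 0.1 FPKM.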
